A study of Bos taurus with 27 samples.

Results

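Mitochondrial ribosomal proteins (MRPs) are the subunits of the ribosome that works inside mitochondria. They were taken here as all non-control probes of the array whose gene name starts with MRPL or MRPS followed by a digit, with the probe of highest signal standing for a gene. This gave 75 genes, 46 named MRPL and 29 named MRPS, of 15008 probes for 14952 gene names in all. Each of the 75 genes had 1 probe, so no choice between probes was needed. The probes were measured in biopsies of the rumen epithelium (RE), a stratified lining of the forestomach. The biopsies came from the same 9 castrated and fistulated Japanese Black cattle (*Bos taurus*). The cattle were 14 months of age at the early, 21 months at the middle and 29 months at the late stage of fattening. All of the cattle received a high-concentrate diet throughout, and no animals on another diet were among the samples, so that age, time on feed and stage cannot be told apart. By the study's methods, the ration also held less forage and its concentrate less crude protein in the middle and late stages than in the early one, and these changes cannot be told apart from stage either. The 27 biopsies gave 27 one-color arrays, 9 per stage. Arrays with the same number in their labels were taken as the same animal, which the labels do not state. As in the study, the first period compares the middle with the early stage, the second period the late with the middle stage, and the total period the late with the early stage.

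The mitochondrial ribosome translates the few messages of the mitochondrial genome, which encode core subunits of the respiratory chain and of ATP synthase. Its RNAs are encoded in the mitochondrial genome, whereas all of its proteins are encoded in the nucleus, translated in the cytosol and imported. Some MRPs descend from bacterial ribosomal proteins and others have no bacterial counterpart. The letters L and S name the large subunit, which forms peptide bonds, and the small subunit, which reads the message, although MRPS30 and MRPS18A lie in the large subunit despite their names.

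Values are log2 processed intensities relative to the array median and, in addition, to the running median on the same array of the 500 probes of nearest mean signal. On this signal-matched scale, 0 is the level of the typical probe of like brightness on that array, and a change of 1 is a doubling relative to such probes. The array median alone was the alternative scale. The 2 scales matter because the middle-stage arrays were dimmer: their median intensity was 8.22 to 28.7, against 35.2 to 48.6 on early-stage and 32.2 to 47.0 on late-stage arrays, and 48.5% to 71.5% of their probes were well above background, against 68.8% to 78.1% and 68.4% to 73.7%. On the array-median scale the median of all probes shifted by 0.32 over the first period and by −0.27 over the second, and on the signal-matched scale by 0.02 and −0.01. Signals of different probes were not compared with each other as amounts of RNA. In a biopsy, fewer cells of a type and less RNA per cell cannot be told apart.

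Among the tissue checks, 11 of 14 markers of stratified epithelium had signal well above background on all 27 arrays, among them KRT5, KRT14, KRT15 and DSP. PPL and DSG1 had such signal on 26 arrays, and the keratin KRT4 on none. One part of the sample labels speaks of RNA from neutrophils and liver. The hepatocyte genes ALB, FGA and CYP2E1 were not well above background on any array, and 0 of 10 hepatocyte markers were on all arrays. However, APOA1 was on 26, TTR on 23 and AHSG on 18 arrays, and FGB, APOB, TF and SERPINA1 were on 1 to 3. In the first period AHSG fell by 2.62 and SERPINA1 by 0.87, and APOA1 rose by 1.34 (limma, adjusted *P* = 3.72e-06, 0.0157 and 0.0153). Of the neutrophil genes, ELANE was on no array, MPO and S100A9 on 2, CXCR2 on 19 and CSF3R on 22. S100A8 and S100A12, which neutrophils and squamous epithelium both express, were bright throughout. The summed level of 14 epithelial markers (linear, relative to the array median) ran from 3125 to 4227 on early-stage, from 984.4 to 4620 on middle-stage and from 3532 to 4459 on late-stage arrays. In the first period 5 of them (35.7%) were lower and 2 (14.3%) higher, with a median change of −0.01. For these and the markers below, 22.8% of all probes were called lower and 23.8% higher. The largest falls were −1.40 in PPL, −1.29 in KRT6A and −1.10 in KRT14 (limma, log2, adjusted *P* = 7.87e-08, 0.00122 and 3.03e-05). The 2 rises were 0.62 in JUP and 0.46 in DSG3 (adjusted *P* = 0.00119 and 0.0028). Of 7 smooth muscle markers, 2 (28.6%) were higher and 0 lower in the first period, a share of rises near that of all probes. MYH11, well above background on 21 arrays, rose by 1.80 and SYNM by 1.12 (adjusted *P* = 2.83e-06 and 0.000376). The median changes of the smooth muscle markers were 0.64 and −0.86 in the first and second periods. Their summed level was 63.2 to 234.4, 49.4 to 557.6 and 72.4 to 121.9 at the stages in turn. Of 6 fibroblast markers, COL1A1 was higher by 0.62 and LUM lower by 1.06 (adjusted *P* = 0.00164 and 2.61e-05), with median changes of 0.44 and −0.70 and summed levels of 87.9 to 749.9, 89.6 to 1021 and 70.7 to 404.2. Of 6 endothelial markers, 1 (16.7%) was higher and 0 lower in the first period, CLDN5 by 0.79 (adjusted *P* = 0.00203). Of 8 leukocyte markers, PTPRC was higher by 0.59 and CD3G lower by 1.21 (adjusted *P* = 0.0464 and 0.0048), 12.5% each way. Hemoglobin HBA rose by 1.17 in the first period (adjusted *P* = 4.40e-06), and the other 4 red blood cell markers were well above background on 1 to 3 arrays. S100A12 and S100A8 rose by 0.85 and 0.47 (adjusted *P* = 1.58e-05 and 0.0309), but no other of 7 neutrophil markers was called, with CXCR2 at −0.44 and CSF3R at 0.02. The part of these shifts in the MRP results was not tested.

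The sequences of the probes fix what each value measures. All probes are 60 bases long, and 63 of the 75 rest on a RefSeq transcript, of which 62 were found under the same symbol in the RefSeq gene table (assembly ARS-UCD2.0, used for names only). The probes without a RefSeq transcript are those of MRPL12, MRPL14, MRPL21, MRPL23, MRPL42, MRPL43, MRPL52, MRPS9, MRPS10, MRPS14, MRPS33 and MRPS36. They include large rises of the first period, in MRPL12, MRPL52, MRPS14 and MRPS33. 6 of the 75 match the bovine genome (UMD_3.1) only across an intron. The probes of MRPL28 (chr25:363224-363831, minus strand), MRPL9 (chr3:19061922-19063687, plus strand) and MRPL44 (chr2:112857565-112858460, plus strand) are shown because they lie across exons, have a reading frame without a stop codon and belong to genes with large falls in the first period. MRPL44 (log2 change −0.85 ± 0.10, limma, adjusted *P* = 2.23e-06) was chosen after its values had been seen. They are written 5′ to 3′ in lower case.
MRPL28: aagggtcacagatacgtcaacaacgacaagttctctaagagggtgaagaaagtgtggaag
MRPL9: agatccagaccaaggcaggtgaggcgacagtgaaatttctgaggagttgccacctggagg
MRPL44: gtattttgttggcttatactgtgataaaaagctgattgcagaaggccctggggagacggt
Other probes hold AATAAA or ATTAAA, the letters of the poly(A) signal that directs cleavage and polyadenylation of a message. Whether they lie at the end of the transcript was not looked up. The last 30 bases of 6 of them are shown, with the hexamer in capitals, because the direction of change in the first period differed between such probes and the rest. In MRPS26 (chr13:52590819-52590878, minus strand), MRPL27 (chr19:36939593-36939652, plus strand) and MRPL41 (chr11:105594968-105595027, minus strand), the level was higher at the middle stage. In MRPL38 (chr19:56358060-56358119, plus strand) it was lower at the late stage, and in MRPS21 (chr3:20381772-20381831, minus strand) and MRPL2 (chr23:16656309-16656368, minus strand) it was lower at the middle stage.
MRPS26: gaAATAAAgcagttggtgtttgtgatgaag
MRPL27: tggggccaacAATAAAgttagctagagttg
MRPL41: ccctcgttttcgtttctATTAAAgaccttg
MRPL38: ggtagggtttccAATAAAgatttttgctgt
MRPS21: gctgttgctaaagAATAAAgacctggcttc
MRPL2: caaaactgatattcctggactctAATAAAa

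MRPs were well measured in the RE. Of the 75 genes, 67 passed background clearly on all 27 arrays, and no spot of an MRP probe was saturated. Single arrays had 71 to 72 such MRP probes in early-stage, 67 to 72 in middle-stage and 70 to 72 in late-stage biopsies. MRPL21, a protein of the large subunit, and MRPS36, which is now known as a component of the 2-oxoglutarate dehydrogenase complex, were well above background on 0 arrays. MRPL14, a protein at the face of the large subunit that meets the small one, was so on 1 late-stage array. The signals of these 3 genes are background, and no change is read from them, although they stay in the counts over 75 genes. The counts over the other 72 are given beside them.

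In the first period more MRP genes were downregulated than upregulated. Of 75 genes, 31 (41.3%) were lower and 19 (25.3%) higher at the middle stage (limma with the animal as a block, Benjamini-Hochberg adjusted *P* below 0.05), whereas 22.8% of all probes were called lower and 23.8% higher. Among the 72 measured genes the counts were 31 and 18, with a median of −0.21. Of the 67 well above background throughout, 30 were lower and 16 higher, where 26% of all probes so measured were lower and 37.3% higher. The median change was −0.16 over the 75 MRP genes and 0.02 over all probes. On the array-median scale 30 were lower and 20 higher, beside 21.3% and 45.3% of all probes, with a median of −0.19 beside 0.32. The levels of the early and middle stages did not overlap in 12 lower and 9 higher MRP genes, where 7.22% and 6.14% of all probes had no overlap in these directions. The changes spread over a wide range, from a fall of 2.34 to a rise of 1.41 on the log2 scale (MRPS14, a small subunit protein well above background on 8, 8 and 5 arrays of the stages in turn), so that the median covers genes that moved in opposite directions.

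**Figure D1:**
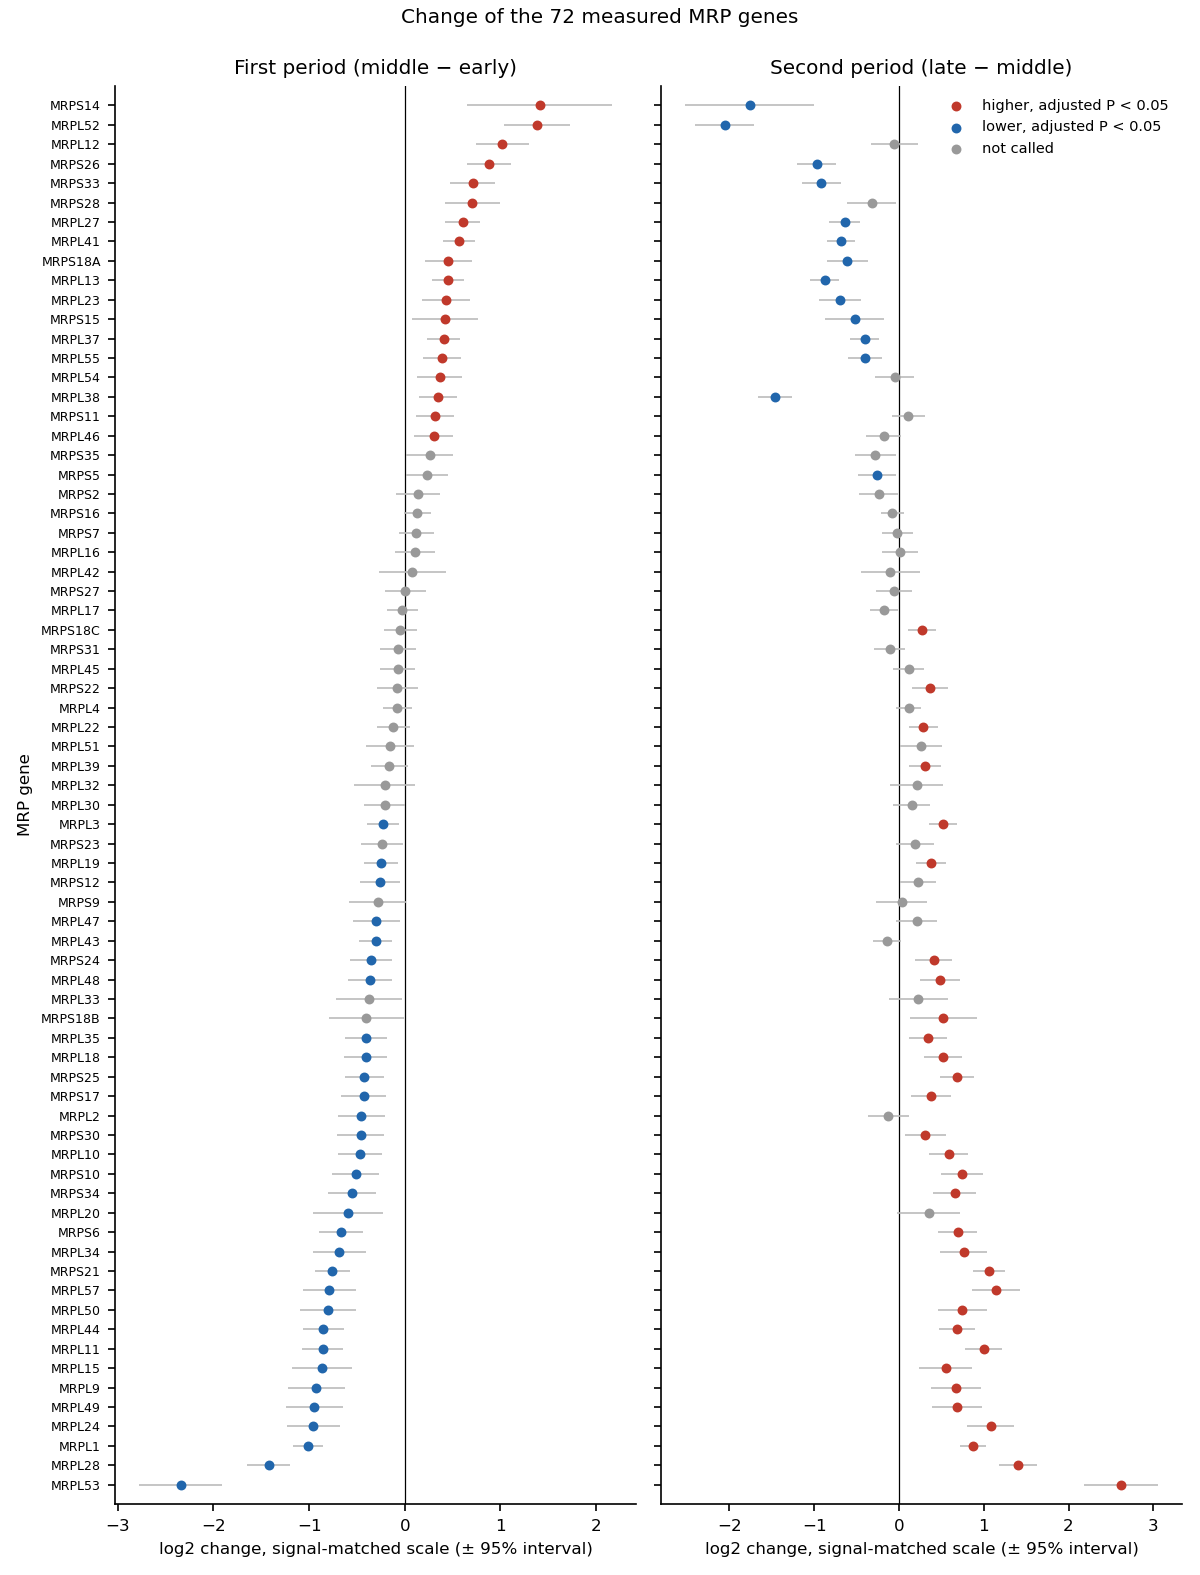
Log2 change with its 95% interval for the 72 measured MRP genes (rows, ordered by the first period) in the first period (left) and the second period (right), on the signal-matched scale, from 9 cattle per stage. Red and blue points passed an adjusted *P* of 0.05, 31 lower and 18 higher in the first period, and grey points did not. Both panels use the same middle-stage arrays, so the mirrored order of the panels is in part fixed by the design.

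The 6 largest falls of the first period were in proteins of the large subunit. MRPL28, a homologue of a bacterial large subunit protein, had early-stage levels of 0.09 to 0.78 (median 0.48), middle-stage levels of −1.46 to −0.58 (−0.86) and late-stage levels of 0.065 to 0.59 (0.52). All 9 middle-stage values were below all others, and the level was 1.42 ± 0.11 (SE, n = 9 cattle) lower on the log2 scale than at the early stage, a 2.68-fold fall (limma, adjusted *P* = 1.36e-08). MRPL24, which in bacteria has a counterpart that starts the assembly of the large subunit, lay at −0.04 to 0.56 (median 0.31), −1.43 to −0.14 (−0.59) and 0.24 to 0.53 (0.42) at the 3 stages in turn. The stages did not overlap on either side of the middle stage, and the fall was 1.94-fold (log2 change −0.95 ± 0.13, adjusted *P* = 1.08e-05).

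MRPL1, a homologue of the bacterial protein on the stalk where deacylated tRNA leaves, ranged from 0.15 to 0.52 (median 0.36) early and from −0.95 to −0.49 (−0.65) in mid-fattening. It fell in 9 of 9 cattle, by 1.01 ± 0.07 on the log2 scale (adjusted *P* = 1.07e-08). MRPL49, which has no bacterial homologue, ranged from 0.16 to 0.83 (0.34) and from −1.25 to −0.06 (−0.41), again without overlap, with a log2 change of −0.95 ± 0.14 (adjusted *P* = 2.33e-05). MRPL9 ranged from 0.04 to 0.64 (0.37) and from −1.55 to −0.01 (−0.46), with a log2 change of −0.92 ± 0.14 (adjusted *P* = 2.75e-05). In each of these 3 genes the highest middle-stage array was still below the lowest early-stage array, but the middle-stage arrays varied more among themselves, with SDs of 0.15, 0.40 and 0.46 against 0.12, 0.22 and 0.19.

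MRPL53, a mitochondria-specific protein near the base of the stalk, had the largest fall of the 75, 5.07-fold (log2 change −2.34 ± 0.21, adjusted *P* = 7.55e-08). Its early-stage levels were 0.31 to 1.00 (median 0.65) and its middle-stage levels −2.73 to −0.65 (−1.62). Its probe passed background on 9 of 9 early-stage but 3 of 9 middle-stage arrays, so the size of its fall is less certain than its presence.

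The rises of the first period were spread over both subunits. MRPS26, a small subunit protein without a bacterial homologue, lay at −0.60 to 0.00 (median −0.29), 0.19 to 1.39 (0.55) and −0.64 to −0.16 (−0.37) at the 3 stages in turn. The middle-stage values stood above all others, 1.84-fold over the early stage (log2 change 0.88 ± 0.11, adjusted *P* = 2.67e-06). MRPL27, whose bacterial counterpart reaches toward the site of peptide bond formation, lay at −0.44 to −0.04 (−0.24), 0.17 to 0.69 (0.35) and −0.40 to −0.10 (−0.27), and rose 1.52-fold (log2 change 0.61 ± 0.09, adjusted *P* = 1.37e-05). MRPL41 lay at −0.18 to 0.03 (−0.09), 0.26 to 0.90 (0.48) and −0.38 to −0.08 (−0.22), with a log2 change of 0.57 ± 0.08 (adjusted *P* = 1.17e-05). In none of them did the middle stage overlap with either other stage.

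MRPL52 and MRPS33, mitochondria-specific proteins of the large and the small subunit, rose as well. Neither probe rests on a RefSeq transcript, and both were dim, with early-stage medians of −0.55 and −0.57 (log2 over the array median). Of all probes well above background throughout with a mean signal below 2 on that scale, 48.7% were higher and 16.1% lower. MRPL52 went from −0.66 to 0.28 (median −0.25) to 0.36 to 1.89 (1.01), a 2.61-fold rise (log2 change 1.39 ± 0.17, adjusted *P* = 1.89e-06). MRPS33 went from −0.57 to 0.05 (−0.12) to 0.05 to 0.96 (0.54), with a log2 change of 0.71 ± 0.11 (adjusted *P* = 3.30e-05). MRPS28 rose by 0.70 ± 0.14 (adjusted *P* = 0.000311), from −0.53 to −0.22 (−0.39) to −0.19 to 1.17 (0.09). The levels of the early and middle stages did not overlap in any of the 3, and all 9 cattle moved the same way.

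**Figure D2:**
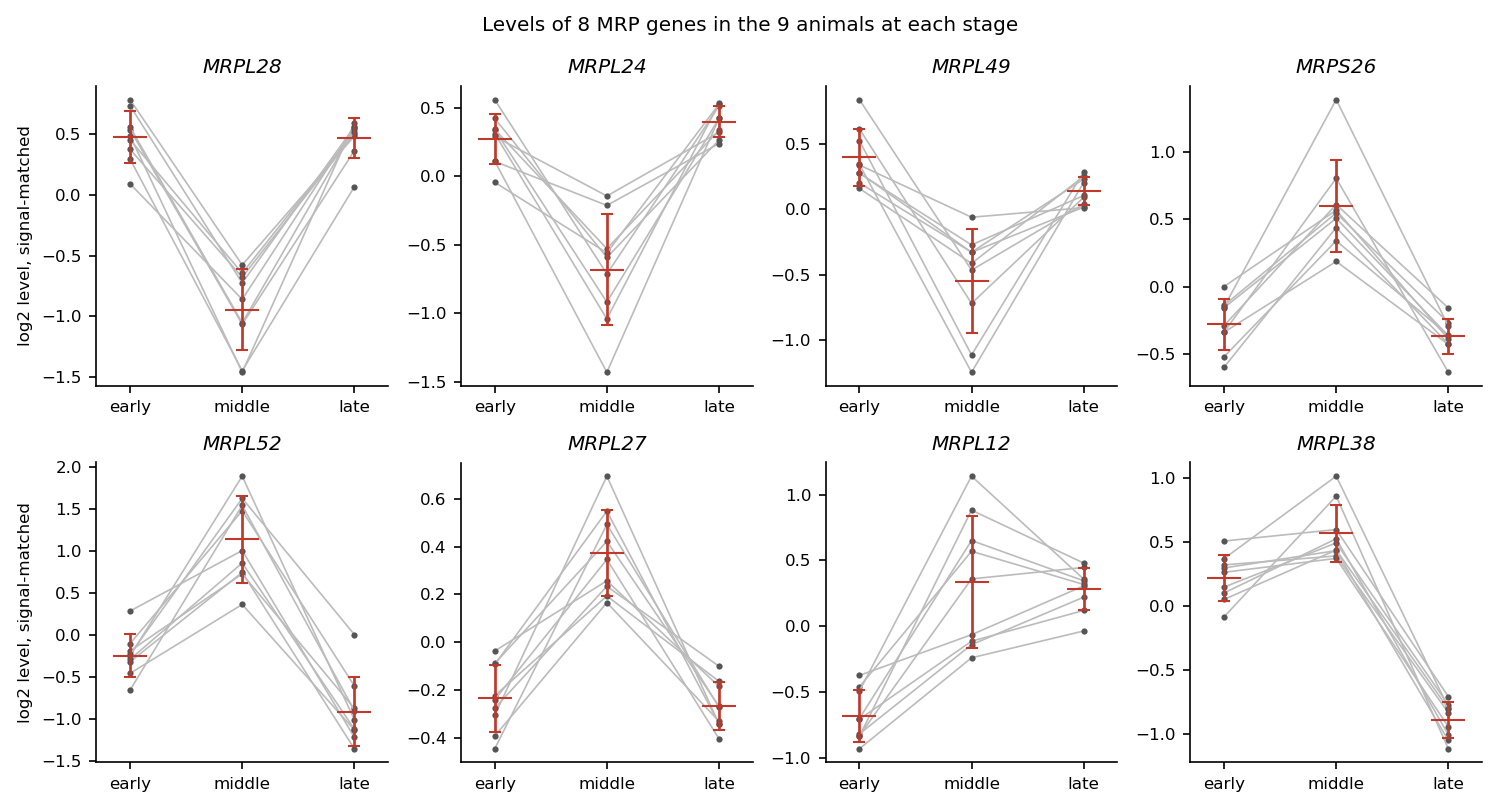
Signal-matched log2 level of 8 MRP genes (panels, each with its own vertical scale) at the early, middle and late stages. Each grey line joins the 3 arrays of 1 animal (9 cattle), and red marks are the mean ± SD of a stage. MRPL28, MRPL24 and MRPL49 dip at the middle stage, MRPS26, MRPL52 and MRPL27 peak there, MRPL12 stays up at the late stage, and MRPL38 is lowest at the late stage.

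Of 48 genes whose products lie in the large subunit, 23 (47.9%) were lower and 12 higher in the first period (median −0.22). Of 26 small subunit genes, 8 (30.8%) were lower and 6 higher (median −0.06). Within the large subunit, 15 of 28 homologues of bacterial proteins were lower and 4 higher (median −0.27), and 7 of 17 proteins without a bacterial homologue were lower and 6 higher (median −0.15). In the small subunit the counts were 6 lower and 3 higher of 15 homologues, and 2 lower and 2 higher of 9 others. 3 large and 2 small subunit genes were not put in either class. Beside these counts, 22.8% of all probes were lower and 23.8% higher, so the shares of the small subunit proteins without a homologue, 22.2% and 22.2%, were near those of all probes. These counts describe the groups, and the difference between them was not tested.

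In the second period more MRP genes were upregulated. Of 75 genes, 32 (42.7%) were higher and 14 (18.7%) lower in late-stage than in middle-stage biopsies, against 26.6% and 26.2% of all probes, and among the 72 measured genes the counts were 31 and 14. Of the 67 well above background throughout, 30 were higher and 13 lower, where 29.7% of all probes so measured were higher and 38.7% lower. The median was 0.21, beside −0.01 over all probes. On the array-median scale 39 were higher and 12 lower, beside 27% and 44.6% of all probes, and the median was 0.39 beside −0.27. The stages did not overlap in 14 higher and 8 lower genes, where 9.14% and 8.82% of all probes had no overlap in these directions. This comparison shares the middle-stage arrays with the first period, so an array that is low at the middle stage counts in both. The late-stage arrays shared no slide and no scan day with the others, so that slide, scan day and stage cannot be told apart in this comparison.

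MRPL53 rose by 2.62 ± 0.21 on the log2 scale (adjusted *P* = 6.63e-09) and MRPL28 by 1.41 ± 0.11 (adjusted *P* = 3.69e-09). The size of the rise of MRPL53 is uncertain, as its probe passed background on 3 of 9 middle-stage arrays. MRPL57, a large subunit protein, lay at −1.71 to −0.10 (median −0.57) in mid-fattening and at 0.31 to 0.61 (0.49) late, and rose 2.21-fold (log2 change 1.15 ± 0.13, adjusted *P* = 6.83e-07). MRPL24 rose by 1.08 ± 0.13 (adjusted *P* = 1.45e-06). These 4 genes rose in all 9 cattle, and the values of the 2 stages did not overlap in any of them. MRPS21, a small subunit protein with a bacterial homologue, went from −0.95 to −0.20 (−0.61) to 0.26 to 0.69 (0.46), with a log2 change of 1.06 ± 0.09 (adjusted *P* = 1.15e-08).

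MRPL38 and MRPL52 fell most in the second period among the genes measured above background in all 9 cattle at some stage. MRPL38, a mitochondria-specific protein of the large subunit, lay at 0.37 to 1.01 (median 0.49) in mid-fattening and at −1.12 to −0.71 (−0.83) late, a 2.75-fold fall in 9 of 9 cattle (log2 change −1.46 ± 0.09, adjusted *P* = 5.92e-10). MRPL52 fell 4.15-fold, from the middle-stage values above to −1.36 to 0.00 (−1.01) (log2 change −2.05 ± 0.17, adjusted *P* = 7.76e-09). MRPS26 fell by 0.97 ± 0.11 and MRPS33 by 0.92 ± 0.11 on the log2 scale (adjusted *P* = 4.32e-07 and 1.08e-06). MRPL13, a large subunit homologue of a bacterial protein, fell by 0.88 ± 0.08 (adjusted *P* = 3.56e-08), from 0.14 to 0.74 (0.41) to −0.73 to −0.36 (−0.45). MRPL23, whose bacterial counterpart lines the exit of the peptide tunnel, fell by 0.69 ± 0.12 (adjusted *P* = 5.84e-05), and its middle-stage range of −0.20 to 0.97 overlapped with its late-stage range of −0.56 to 0.02.

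**Figure D3:**
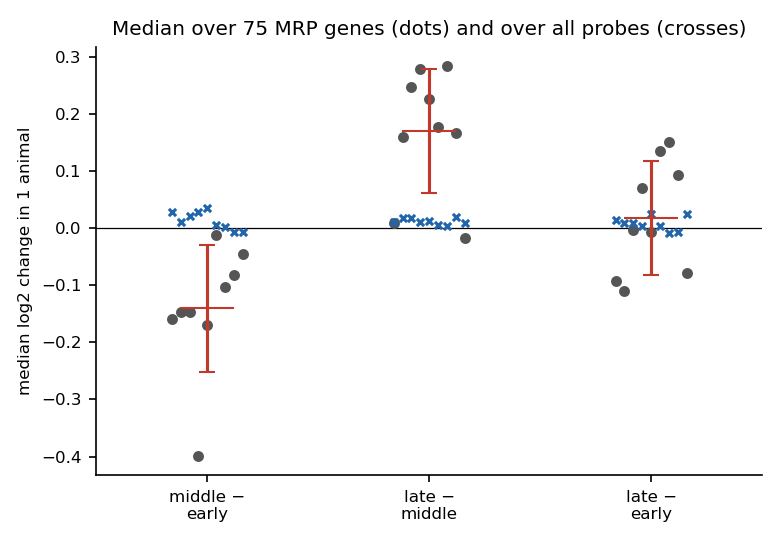
Median log2 change over the 75 MRP genes (dots, 1 per animal in the order of animals 1 to 9) and over all 15008 probes (crosses) in each comparison, on the signal-matched scale, with the mean ± SD over 9 cattle in red. The MRP median is below 0 in 9 of 9 cattle in the first period and above 0 in 8 of 9 in the second.

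On the signal-matched scale the same direction appeared within single animals. In the first period the median over the MRP genes was between −0.40 and −0.01 in the 9 cattle (mean −0.14 ± 0.11, SD) and below 0 in all 9. In the second period it was between −0.02 and 0.28 (0.17 ± 0.11) and below 0 in 1 animal. In the total period it was between −0.11 and 0.15 (0.02 ± 0.10) and below 0 in 5. Animal 4 had the lowest first-period median, and its middle-stage array was the dimmest of all. Without the 2 middle-stage arrays of lowest median intensity, those of animals 4 and 9, 29 MRP genes were lower and 19 higher in the first period, and 32 higher and 13 lower in the second. The shares of all probes called in that fit are not given, so these counts are not read as an excess over the array.

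In the total period few MRP genes differed. 5 of 75 (6.67%) were higher and 5 (6.67%) lower in late-stage than in early-stage biopsies, where 8.81% and 10.1% of all probes were, and the median was −0.01 beside −0.003. Of the 67 well above background throughout, 3 were higher and 5 lower, beside 10.3% and 13% of all probes so measured. The stages did not overlap in 4 higher and 3 lower genes, beside 2.62% and 3.67% of all probes. 1 of the 5 higher genes was MRPL14, which was not measured, and the others were MRPL12, MRPS11, MRPS21 and MRPL3. On the array-median scale 12 were higher and 2 lower, beside 11.2% and 8.93% of all probes, and the median was 0.15 beside 0.03, so the counts of this period depend on the scale.

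MRPL12, the stalk protein that recruits translation factors and also binds the mitochondrial RNA polymerase, was 1.95-fold higher (log2 change 0.97 ± 0.13, adjusted *P* = 3.73e-05). Its values were −0.93 to −0.37 (median −0.71) early, −0.24 to 1.14 (0.36) in mid-fattening and −0.036 to 0.48 (0.32) late. The early-stage values lay below all others, and the late-stage range lay within the middle-stage range, with a change of −0.05 ± 0.13 between them. MRPL12 rose in the first period by 1.02 ± 0.13 (adjusted *P* = 4.14e-06).

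MRPL38 was 2.16-fold lower late than early (log2 change −1.11 ± 0.09, adjusted *P* = 1.17e-07), from −0.09 to 0.51 (median 0.26) at the early stage, with no overlap. MRPL52 was lower by 0.67 ± 0.17 (adjusted *P* = 0.00763) in 8 of 9 cattle. MRPL2, whose bacterial counterpart lies near the site of peptide bond formation, was lower by 0.58 ± 0.12 (adjusted *P* = 0.0016), at −0.12 to 0.69 (0.37) and −0.52 to −0.04 (−0.31). MRPL43 was lower by 0.44 ± 0.08 (adjusted *P* = 0.000738) and MRPL13 by 0.43 ± 0.08 (adjusted *P* = 0.0009), both in 9 of 9 cattle. The lower calls of MRPL2, MRPL13 and MRPL43 did not hold on the array-median scale (adjusted *P* = 0.0602, 0.0942 and 0.124). MRPS11, a small subunit protein with a bacterial homologue, was higher by 0.43 ± 0.09 (adjusted *P* = 0.00343), MRPS21 by 0.30 ± 0.09 (adjusted *P* = 0.0214) and MRPL3 by 0.29 ± 0.08 (adjusted *P* = 0.0128).

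Stage and slide were close to confounded. Slide 1 held early-stage arrays only, slide 2 held 1 early-stage and 7 middle-stage arrays, and the late stage shared no slide with either other stage, so that slide and stage cannot be told apart in the second and total periods. With the slide as a random block, 23 MRP genes were lower and 11 higher in the first, 24 higher and 12 lower in the second, and 1 higher (MRPL12, adjusted *P* = 0.013) and 2 lower (MRPL38 and MRPL43, adjusted *P* = 0.000116 and 0.0331) in the total period. The shares of all probes called in this fit and in those below are not given. Their counts are therefore not read as an excess over the array. Slide 2 alone leaves 1 early-stage array, too few to compare the stages within it: limma called 0 MRP genes there, with 7 higher and 9 lower at an unadjusted *P* of 0.05. The first scan day holds 16 of the early-stage and middle-stage arrays, on slides 1 and 2, and gave 29 lower and 14 higher, but it does not separate slide from stage. With the slide as a fixed effect, where slide 2 alone holds both stages, 4 were lower and 3 higher, and 43 of the 50 genes called over all arrays kept their direction. Among the measured genes described here, MRPL2 (0.88), MRPL12 (−0.37), MRPL38 (−0.23), MRPS14 (−0.50) and MRPS18B (0.40) turned in the first period in that fit, without passing the threshold.

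By role, the proteins of the stalk and of the decoding site did not move together. MRPL11 and MRPL10, the base of the stalk, fell in the first period by 0.86 ± 0.10 and 0.46 ± 0.11 on the log2 scale (adjusted *P* = 2.23e-06 and 0.00174) and rose in the second by 1.00 ± 0.10 and 0.59 ± 0.11 (adjusted *P* = 1.76e-07 and 0.000153), whereas MRPL12 rose in the first. MRPL11 lay at −0.03 to 0.47 (median 0.26), −1.32 to −0.39 (−0.54) and 0.12 to 0.64 (0.37), and MRPL10 at −0.03 to 0.17 (0.10), −0.69 to 0.24 (−0.52) and −0.14 to 0.45 (0.19). The middle stage of MRPL11 was separate from both others, and that of MRPL10 overlapped with both. MRPS12, which takes part in decoding, had a log2 change of −0.26 ± 0.10 in the first (adjusted *P* = 0.0373, 7 of 9 cattle) and of 0.23 ± 0.10 in the second period (adjusted *P* = 0.0636), and the first of these calls was lost when any of animals 1 to 7 was left out.

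The 3 paralogues of bacterial ribosomal protein S18 differed in pattern. MRPS18A, of the large subunit, rose by 0.46 ± 0.12 in the first (adjusted *P* = 0.00328) and fell by 0.61 ± 0.12 in the second period (adjusted *P* = 0.00021). MRPS18B had changes of −0.40 ± 0.19 (adjusted *P* = 0.0867) and 0.52 ± 0.19 (adjusted *P* = 0.0237), with a middle-stage range of −1.49 to 1.02 that held all of its early-stage and late-stage values. MRPS18C, with values of −0.17 to 0.00 (median −0.11), −0.49 to 0.18 (−0.12) and 0.01 to 0.30 (0.14), had changes of −0.05 ± 0.08 (adjusted *P* = 0.681) and 0.27 ± 0.08 (adjusted *P* = 0.00708). MRPS30, the other large subunit protein with an S name, fell by 0.46 ± 0.12 in the first (adjusted *P* = 0.00311) and rose by 0.31 ± 0.12 in the second period (adjusted *P* = 0.0311). MRPL55, a bright probe of a large subunit protein, rose by 0.39 ± 0.10 and then fell by 0.40 ± 0.10 (adjusted *P* = 0.00242 and 0.00165).

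The calls differed between bands of probe brightness. Of 6 MRP genes measured on all arrays with a mean signal below 2 (log2 over the array median), 3 were lower and 2 (33.3%) higher in the first period, where 16.1% and 48.7% of the 1977 probes of that band were. Of 16 MRP genes measured on all arrays with a mean signal of 2 to 4, 12 (75%) were lower and 1 (6.25%) higher, where 30.7% and 33.5% of the 2277 probes of that band were. Of 28 at 4 to 6, 12 (42.9%) were lower and 4 (14.3%) higher, against 31.3% and 31.4% of 1603 probes. Of 17 above 6, 3 (17.6%) were lower and 9 (52.9%) higher, against 26.4% and 32.7% of 940 probes. From 2 upward, falls were thus more frequent among MRP genes of moderate probe signal and rises among the brightest, while the 6 dimmest genes did not continue this order. In the second period 3 were higher and 2 lower below 2, where 20.1% of all probes of the band were higher and 48.7% lower. The counts were 11 and 1 at 2 to 4 (all probes 33.6% and 34.8%), 14 and 1 at 4 to 6 (34.3% and 33.9%), and 2 and 9 above 6 (32.8% and 35.5%). Over 67 MRP genes on shared arrays the correlation of change with mean signal was 0.28 for the first period and −0.23 for the second, and over all 6797 probes well above background on all arrays it was −0.17 and 0.16. The bands were chosen after the values had been seen, and the part of signal in the changes was not tested.

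**Figure D4:**
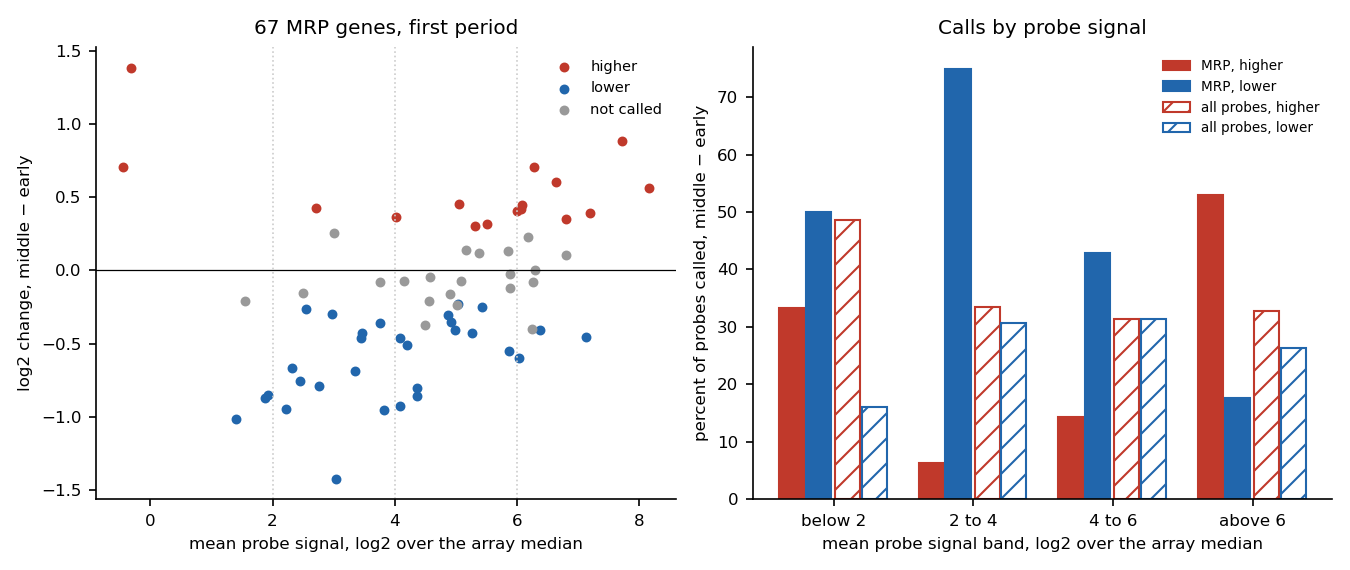
Left, log2 change in the first period against the mean signal of the probe (log2 over the array median) for the 67 MRP genes well above background on all arrays, coloured by call, with dotted lines at the limits of the bands. Right, percent of probes called higher or lower in each band, for MRP genes (filled) and all probes (hatched), where 75% of the MRP genes at 2 to 4 were lower and 52.9% of those above 6 were higher.

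The probes were also divided by the poly(A) hexamer. AATAAA or ATTAAA, searched on the strand of the probe, occurred in 17 of 75 MRP probes (22.7%) and in 12.6% of all probes. On the other strand, where these hexamers read TTTATT or TTTAAT, they occurred in 3 MRP probes (4.00%) and in 5.64% of all probes. In the first period 8 of the 17 genes (47.1%) were higher and 5 (29.4%) lower (median 0.12), where 41.6% and 14.6% of all probes with the hexamer and well above background throughout were. Of the other 58 genes 11 were higher and 26 (44.8%) lower (median −0.21). Of the 50 of these well above background throughout, 8 (16%) were higher and 25 (50%) lower (median −0.24), where 36.3% and 28.5% of all probes so measured without the hexamer were. The share of higher calls among MRP genes with the hexamer was thus near that of the array. In the second period the medians were −0.02 and 0.25. Over all probes well above background on all arrays, the 1221 with a hexamer had medians of 0.21 and −0.15 and the 5576 without had 0.09 and −0.07. MRPL27, MRPL41 and MRPS26 were among the 8 genes that were higher, and MRPS21 and MRPL2, which hold the same hexamer, were lower, so genes with the hexamer moved in both directions. Of the 6 probes across an intron, 3 were lower and 1 higher (median −0.53). The split was made after the values had been seen, and the part of the hexamer in the changes was not tested.

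**Figure D5:**
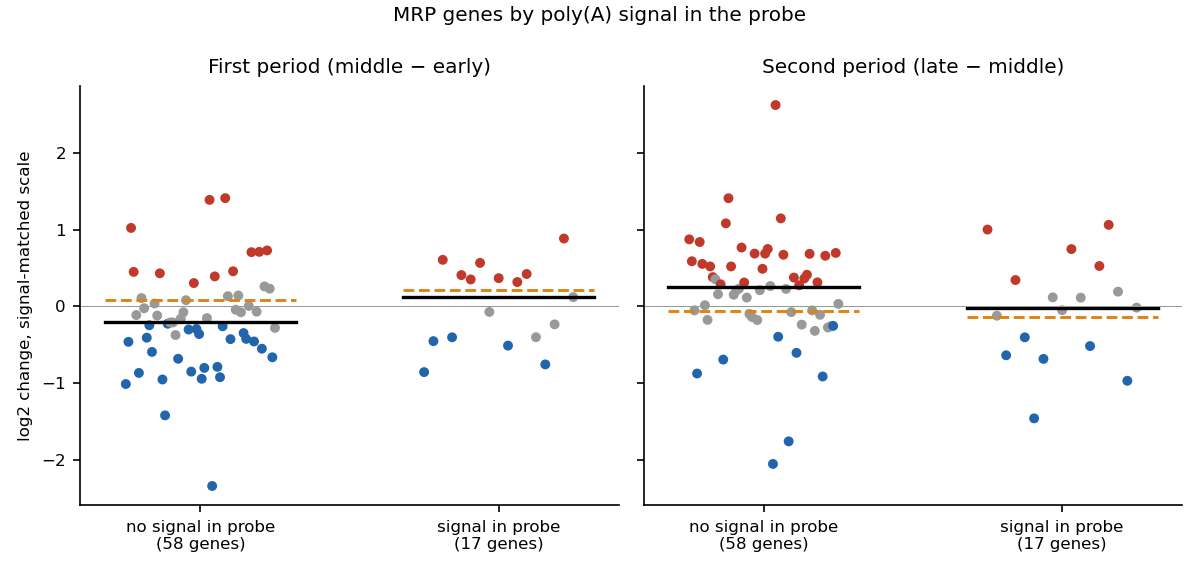
Log2 change of the 75 MRP genes (dots) in the first (left) and second (right) period, by whether the probe holds AATAAA or ATTAAA. Red dots were called higher, blue dots lower and grey dots neither, black bars are medians over the MRP genes (−0.21 without and 0.12 with a signal in the first period), and dashed orange bars are medians over all probes well above background on all arrays. Of the 58 MRP genes without a signal, 50 were well above background on all arrays.

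Within a stage, the median SD among cattle was lower over MRP genes than over all probes, without matching for probe signal. The median SD over the 67 MRP genes well above background on all arrays was 0.13 early, 0.29 in mid-fattening and 0.15 late, and over all such probes it was 0.19, 0.39 and 0.19. A mean signal below 2 was found in 6 of these 67 genes and in 1977 of all 6797 such probes. The part of probe signal in this difference was not tested. After stage and animal means were removed, the median correlation over pairs of MRP genes was 0.13 across the 27 arrays, and over pairs of 6764 probes it was 0.00167. All pairs share the arrays and their brightness.

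Other genes of mitochondrial translation did not share a single direction. For the counts that follow, 23.8% of all probes were called higher and 22.8% lower in the first period, 26.6% and 26.2% in the second. Of 6 ribosomal subunits that carry other symbols, 4 were higher and 1 lower in the first period, and 3 were lower and 1 higher in the second. PTCD3, a small subunit protein that binds RNA, rose by 0.61 ± 0.11 (adjusted *P* = 0.000208), DAP3, a small subunit protein that binds GTP, by 0.50 ± 0.18 (adjusted *P* = 0.0263) and GADD45GIP1 by 0.52 ± 0.20 (adjusted *P* = 0.0363). ICT1, a peptidyl-tRNA hydrolase built into the large subunit, fell by 0.39 ± 0.10 (adjusted *P* = 0.00238) and was higher by 0.42 ± 0.10 in the total period (adjusted *P* = 0.00478).

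Of 10 translation factors, 2 were higher and 3 lower in the first period, and 3 and 3 in the second, about the share of all probes. TUFM, the elongation factor that brings aminoacyl-tRNA to the ribosome, fell by 1.34 ± 0.14 on the log2 scale (adjusted *P* = 3.65e-07) and rose by 1.07 ± 0.14 (adjusted *P* = 2.23e-06), and its exchange factor TSFM fell by 0.48 ± 0.19 (adjusted *P* = 0.0474). MTIF2, the initiation factor that brings the first tRNA, went the other way, with changes of 0.64 ± 0.09 and −0.88 ± 0.09 (adjusted *P* = 1.20e-05 and 1.74e-07), and the translocation factor GFM1 rose by 0.32 ± 0.12 (adjusted *P* = 0.0296). In the total period the recycling factor MRRF was higher by 0.60 ± 0.09 (adjusted *P* = 0.000152) and the release factor MTRF1 lower by 0.31 ± 0.08 (adjusted *P* = 0.0111).

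Of 18 genes that charge mitochondrial tRNAs, 2 were higher and 5 lower in the first period. GATC, a subunit of the amidotransferase that makes glutaminyl-tRNA, fell by 1.74 ± 0.17 (adjusted *P* = 2.16e-07) and IARS2, for isoleucine, by 1.07 ± 0.16 (adjusted *P* = 1.88e-05), whereas YARS2, for tyrosine, rose by 1.27 ± 0.22 (adjusted *P* = 0.000107) and was lower by 1.81 ± 0.22 in the total period (adjusted *P* = 1.14e-05). VARS2, for valine, was lower by 1.56 ± 0.14 in the total period (adjusted *P* = 2.20e-07). Of 19 genes of ribosome assembly and rRNA modification, 4 were higher and 5 lower in the first period. METTL17, needed for assembly of the small subunit, rose by 1.06 ± 0.14 (adjusted *P* = 8.14e-06), the GTPase MTG1, above background in 6 of 9 middle-stage biopsies, fell by 1.02 ± 0.16 (adjusted *P* = 3.46e-05), and the rRNA methyltransferase NSUN4 was lower by 0.96 ± 0.08 in the total period (adjusted *P* = 3.73e-08).

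Of 8 genes of mitochondrial transcription and RNA handling, 5 were higher and 1 lower in the first period, and 1 higher and 5 lower in the second. POLRMT, the mitochondrial RNA polymerase, rose by 0.56 ± 0.11 and then fell by 0.87 ± 0.11 (adjusted *P* = 0.000355 and 2.14e-06). TFAM, which packages the mitochondrial genome and starts its transcription, rose by 0.47 ± 0.12 and fell by 0.52 ± 0.12 (adjusted *P* = 0.00251 and 0.000842). PNPT1, an RNA-degrading enzyme, fell by 0.59 ± 0.14 in the first period (adjusted *P* = 0.0019), and SUPV3L1, its partner helicase, fell by 0.96 ± 0.07 in the second (adjusted *P* = 5.33e-09).

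Set beside the MRP genes, 14 (17.3%) of 81 cytosolic ribosomal protein genes were lower and 35 (43.2%) higher in the first period (median 0.24), and 44 (54.3%) were lower and 12 (14.8%) higher in the second (median −0.44). Of 38 nuclear genes for complex I subunits, 16 (42.1%) were lower and 7 (18.4%) higher in the first (median −0.21), and 19 were higher and 9 (23.7%) lower in the second period (median 0.38). Over all probes, 22.8% were lower and 23.8% higher in the first period, and 26.2% and 26.6% in the second. The MRP medians of −0.16 and 0.21 lay on the side of the complex I subunits, and the difference from either group was not tested.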

How the data were processed

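Gene expression in the RE was measured on customized bovine arrays with 1 dye, cyanine 3. The intensity values were deposited by the authors as output of Agilent Feature Extraction (9.5 per the labels, 11.0.1.1 per the file headers), with the local background subtracted, together with spot flags in their other columns. The deposited series matrix holds log2 values that follow log2 of the processed signal minus the 75th percentile of each array (SD over probes at most 0.0286, column medians −3.07 to −2.60), and served as an alternative.

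The arrays hold 15646 spots, 15110 of them for 15008 non-control probes. Outlier spots were left missing and spots of the same probe averaged. Log2 signals were centered on the array median and then on the running median of the 500 probes of nearest mean signal. All 27 arrays were fitted in limma 3.58.1 (R 4.3.3) with stage means and an animal block, with Benjamini-Hochberg adjustment of *P* over all probes. Replicates are separate animals. The study sampled the same 9 cattle at each stage, and the labels number the arrays 1 to 9 within a stage. The same number was taken as the same animal across stages, which the labels do not state. Deviations from stage means correlated by 0.16 on average (range −0.10 to 0.54) within animals and by −0.02 between animals. Precision is limited by 9 arrays per stage and by signal over background.

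MRP genes and lists were chosen with earlier results of these data known. Genes were named by role, by highest or lowest mean signal, and, per comparison, as up to 6 largest rises and 6 largest falls among genes called, changed the same way in at least 8 of 9 cattle, with signal well above background in every animal of some stage. From the other lists, the 3 called genes of largest change per list and comparison could be named. The fit was tested on simulated data with known log2 changes at the middle stage. In the first period it called 25 of 100 changes of 0.5 and 69 of 100 changes of 1, with 3 unchanged probes called. In the second period it called 32 and 67 of 100, with 8 unchanged probes called. The simulated noise was independent between probes and held no slide effect, so the fit was not tested against slide effects. The alternatives are listed with their effects in the closing section. Leaving out dim middle-stage arrays, and using the first scan day only, were chosen after seeing the data.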

Additional observations from a re-analysis of the deposited data

Results flagged for a closer look

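In 11 of 99 sets of 9 arrays (33 named genes at 3 stages) the extreme array stood apart from the next by more than Dixon's 95% critical value, where chance gives about 1 in 20. All values are signal-matched log2 levels. At the middle stage, MRPL11 in animal 7 was lowest at −1.32 (next −0.85), MRPL57 in animal 4 lowest at −1.71 (next −0.85) and MRPL41 in animal 9 highest at 0.90 (next 0.55).

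At the late stage, animal 9, whose array was alone on its slide, was lowest for MRPL28 at 0.065 (next 0.36), MRPS11 at −0.094 (next 0.11) and MRPS18A at −0.65 (next −0.31). MRPL13 in animal 8 was lowest at −0.73 (next −0.53), MRPL43 in animal 6 highest at −0.091 (next −0.20) and MRPS18B in animal 7 highest at 0.61 (next 0.25). The signal of MRPL21, which is background on all arrays, was highest in animal 4 at the early stage, at 1.54 (next 0.49), and in animal 1 at the late stage, at 1.82 (next 0.69).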

How the results depend on the processing

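The counts in this section are given without the shares of all probes called in the same fits. They are therefore not read as an excess over the array. The counts and medians of the first and second periods were within 1.5 times or 1 SD over animals of those reported under all alternatives except these. With the slide as a random block 11 genes were higher in the first period. With the slide as a fixed effect 3 were higher and 4 lower, and on slide 2 alone 0 and 0 in limma (7 and 9 at an unadjusted *P* of 0.05). On the array-median scale the second-period median was 0.39. Leaving out each animal gave 17 to 20 higher and 29 to 31 lower genes for the first period, and 30 to 35 higher and 13 to 15 lower for the second.

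The total period moved more. Of 5 higher and 5 lower genes, the array-median scale gave 12 and 2 (median 0.15), normexp 11 and 8, the random slide block 1 and 2, the methods' t-test 13 and 11, and the fit of 2 stages alone 13 and 9. The higher genes numbered 8 on the 75th percentile scale, 8 without dim probes and 11 without the dimmest middle-stage arrays. Leaving out each animal gave 3 to 8 higher (3 without animal 6, 8 without animal 9) and 5 to 6 lower genes.

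Without the replicate block of the animal, the counts were 18 higher and 31 lower, 33 and 13, and 5 and 5 in the 3 periods. The methods' t-test gave 20 higher and 31 lower, 31 and 15, and 17 and 14 genes before adjustment, and 19 and 29, 29 and 13, and 13 and 11 after it. A slide as a fixed effect left the second and total periods without an estimate and was not run there.

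Signs turned for MRPL14 on the array-median scale (0.74 for the first period and −0.46 for the second) and the 75th percentile scale (0.81 and −0.65), for MRPL21 in the second period (−1.29 and −1.48), both background signals from which no change is read, for MRPL2 (0.88), MRPL12 (−0.37), MRPL38 (−0.23), MRPS14 (−0.50) and, not called over all arrays, MRPS18B (0.40) in the first period with the slide as a fixed effect, and for MRPL23 on slide 2 alone (−0.036). The cause was not tested. Of 33 named genes in the first period, 22 kept their sign but lost the call with the slide as a fixed effect. A further 3 (MRPL2, MRPL12 and MRPL38) turned and also lost the call. The other 8 kept the call or were called in neither fit.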
